A study of Mus musculus with 29 samples.

Results

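The ATF4 program and the unfolded protein response were followed as a set of 36 genes chosen by symbol, of 52929 gene identifiers in the count files. Of these, 23 form the ATF4 arm, meaning ATF4 itself with transcription factors, amino acid enzymes, transporters and feedback regulators that it is known to induce. The other 13 form the endoplasmic reticulum (ER) chaperone arm. All are protein-coding genes; by the GENCODE annotation of GRCm38, Atf4 (ENSMUSG00000042406) lies at chr15:80255184-80257541, Chac1 at chr2:119351229-119354381, Phgdh at chr3:98313170-98339990 and Hspa5 (ENSMUSG00000026864) at chr2:34771970-34777547. Counts cover the exons of the whole gene. All 36 had an identifier in each of the 3 sets of libraries and all passed the filter on low counts in every comparison.

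RNA was sequenced from 29 mouse libraries of the C57BL/6 strain in a study of ribonucleotide excision repair, the removal of ribonucleotides from DNA by RNase H2. H2B in the genotypes is read here as Rnaseh2b, the gene of a subunit of that enzyme. The crypt set held 4 libraries of small intestinal crypts from H2BdIEC mice and 4 from H2B flox/flox mice, all aged 52 weeks. The tissue set held 4 tumors and 4 pieces of adjacent tissue, both from the same 4 H2B/p53dIEC mice, and 4 pieces of tissue from H2B/p53flox/flox mice, whose tissue is labelled as adjacent normal tissue (called floxed tissue here). The organoid set held 3 H2B/p53dIEC, 3 H2BdIEC and 3 control cultures. Organoids are epithelial cultures grown outside the animal. The control organoids are titled as wild type and carry an H2B/p53flox/flox genotype label. Ages of the tissue and organoid donors, and the driver of the deletion, are not given in the sources used here. No label says whether the 3 cultures of a genotype came from different mice, and p-values for organoids therefore measure the spread between cultures, which may be technical.

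When amino acids run short or unfolded proteins build up in the ER, kinases that sense these states phosphorylate the translation factor eIF2 alpha. Most protein synthesis then slows, while the Atf4 mRNA is translated more. ATF4 protein induces genes for amino acid uptake and synthesis, and under lasting stress the death-linked factor CHOP, encoded by Ddit3. A separate branch starts from ATF6 and from the sensor IRE1, encoded by Ern1, which splices the Xbp1 mRNA. That branch induces ER chaperones such as BiP, encoded by Hspa5, and the machinery that removes misfolded proteins. Intestinal cells with heavy secretion, such as Paneth and goblet cells, carry much ER and depend on Xbp1. Counts per gene measure neither the translation of Atf4 nor the splicing of Xbp1.

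Sequence elements were searched in the 250 bases before and 50 bases after the start of each gene (RefSeq promoters of build GRCm38.p6, present for 33 of the 36 members; 4 ATF4 arm genes have a pair of promoters). The core of the CEBP-ATF response element, TGATGNAA read on both strands, occurred in 8 of 25 ATF4 arm promoters (32.0%), those of 8 of 21 genes, and in 1 of 12 ER chaperone arm promoters (8.33%, Herpud1). Over all 32851 promoters of the same length it occurred in 3.97%. The ER stress response element, CCAAT and CCACG with 9 unspecified bases between them, on both strands, occurred in 5 of 12 ER chaperone arm promoters (41.7%; Hspa5, Calr, Hsp90b1, Pdia6 and Creld2), in 0 of 25 ATF4 arm promoters and in 0.119% of all promoters. The unfolded protein response element TGACGTGG was in 0 of 25 and 0 of 12, and in 0.676% of all. A match describes letters in this window and does not show binding.

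The 250 bases before the start are printed for 4 ATF4 arm genes and 3 chaperone arm genes, read 5′ to 3′ on the strand of the gene. All of them carry the response element of their arm, which 8 of 21 ATF4 arm and 5 of 12 chaperone arm genes do. Atf4, Ddit3, Phgdh, Shmt2 and Edem1, followed below, had no element in the window. Capitals mark the response element of the arm. The 4 ATF4 arm stretches are Chac1 at chr2:119350992-119351241 (+ strand), Asns at chr6:7693210-7693459 (- strand), Nupr1 at chr7:126625471-126625720 (- strand) and Slc7a11 at chr3:50443614-50443863 (- strand). Chac1 encodes a glutathione-degrading enzyme, Asns encodes asparagine synthetase, Nupr1 encodes a stress-induced chromatin protein, and Slc7a11 encodes the cystine transporter xCT. The chaperone arm stretches are Hspa5 at chr2:34771840-34772089 (+ strand), Hsp90b1 at chr10:86705445-86705694 (- strand) and Pdia6 at chr12:17266339-17266588 (+ strand). Hsp90b1 encodes the chaperone GRP94 and Pdia6 a protein disulfide isomerase.
Chac1: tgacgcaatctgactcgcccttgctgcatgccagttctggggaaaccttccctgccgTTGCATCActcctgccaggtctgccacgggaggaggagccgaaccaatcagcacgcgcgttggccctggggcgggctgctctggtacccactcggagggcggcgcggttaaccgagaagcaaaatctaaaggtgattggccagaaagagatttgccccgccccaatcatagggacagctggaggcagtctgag
Asns: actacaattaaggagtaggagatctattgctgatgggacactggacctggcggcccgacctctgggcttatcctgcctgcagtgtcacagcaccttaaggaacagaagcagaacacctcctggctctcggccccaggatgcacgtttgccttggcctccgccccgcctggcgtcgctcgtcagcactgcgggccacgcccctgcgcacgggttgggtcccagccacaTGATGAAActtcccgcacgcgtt
Nupr1: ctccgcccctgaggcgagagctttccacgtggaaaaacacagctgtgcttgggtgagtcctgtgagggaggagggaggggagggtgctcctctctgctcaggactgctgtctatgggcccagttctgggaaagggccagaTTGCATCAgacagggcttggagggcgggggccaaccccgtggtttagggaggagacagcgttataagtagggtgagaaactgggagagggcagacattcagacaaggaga
Slc7a11: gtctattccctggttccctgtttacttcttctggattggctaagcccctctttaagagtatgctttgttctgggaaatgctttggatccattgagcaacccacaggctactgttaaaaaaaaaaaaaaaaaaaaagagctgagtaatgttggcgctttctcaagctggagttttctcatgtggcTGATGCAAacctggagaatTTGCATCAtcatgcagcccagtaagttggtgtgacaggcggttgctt
Hspa5: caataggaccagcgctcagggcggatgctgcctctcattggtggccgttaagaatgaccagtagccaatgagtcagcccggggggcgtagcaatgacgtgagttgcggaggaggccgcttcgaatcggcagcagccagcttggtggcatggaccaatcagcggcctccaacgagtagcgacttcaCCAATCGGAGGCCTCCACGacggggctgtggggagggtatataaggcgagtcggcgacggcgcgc
Hsp90b1: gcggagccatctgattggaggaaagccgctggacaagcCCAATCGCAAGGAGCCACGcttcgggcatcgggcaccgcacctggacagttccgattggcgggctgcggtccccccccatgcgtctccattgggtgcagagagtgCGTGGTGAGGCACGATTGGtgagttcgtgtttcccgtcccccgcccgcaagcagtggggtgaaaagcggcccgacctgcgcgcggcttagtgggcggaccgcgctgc
Pdia6: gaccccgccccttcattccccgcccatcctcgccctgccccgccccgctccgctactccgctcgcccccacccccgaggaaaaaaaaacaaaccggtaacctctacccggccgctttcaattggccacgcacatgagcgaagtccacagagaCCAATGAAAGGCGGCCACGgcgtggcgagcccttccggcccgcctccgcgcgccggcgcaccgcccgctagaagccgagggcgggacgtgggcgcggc

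Counted from the start of the gene, the first base of the ATF4 arm element stood at -193 in Chac1, -23 in Asns, -110 in Nupr1, and -66 and -47 in Slc7a11, which carries it on both strands. In Chac1 and Nupr1 it read TTGCATCA, the reverse complement, and in Asns it read TGATGAAA. The chaperone arm element began at -65 in Hspa5 and -98 in Pdia6, and Hsp90b1 held a pair of them, at -212 and -107. Atf3, Trib3, Pck2 and Vldlr were the other ATF4 arm genes with the core.

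Total gene counts lay between 13219451 and 41504298 in 27 of the 29 libraries, at 5774771 in H2BdIEC organoid A and at 401365 in the floxed tissue of mouse 1320. The precision of that library is low: a count of 0 there allows a level of up to 8.03 CPM (3 counts). CPM are counts scaled to the library total and a normalization factor. Total counts were 15545059 to 18817537 in H2BdIEC crypts and 23118463 to 25913155 in floxed crypts, so depth and genotype cannot be told apart there. Rnaseh2b was lower in each group with the deletion than in its floxed or control group, at 1.08 to 2.15 CPM in H2B/p53dIEC organoids, 4.97 to 7.05 CPM in H2BdIEC organoids and 14.8 to 18.3 CPM in control organoids. Trp53 lay at 9.96 to 11.7 CPM in H2B/p53dIEC organoids, against 78.3 to 110.2 CPM in H2BdIEC and 98.3 to 115 CPM in control organoids. In tumors Trp53 lay at 12.6 to 29.9 CPM, in adjacent tissue at 13.7 to 27.8 CPM and in floxed tissue at 39.1 to 49.6 CPM. Rnaseh2b lay at 2.53 to 6.20 CPM in tumors, 2.49 to 5.43 CPM in adjacent tissue and 12.8 to 24.1 CPM in floxed tissue, and at 2.13 to 2.71 CPM in H2BdIEC crypts against 6.87 to 14.4 CPM in floxed crypts. Against the labelled cell type, epithelium markers summed to 6038 to 6638 CPM in organoids, and the leukocyte markers Adgre1, Cd3e, Cd3g, Cd8a and S100a8 were at 0 in all 3 organoid groups. In bulk libraries, fewer cells of a type and less RNA per cell cannot be told apart.

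Per kilobase of exon, the chaperones Calr (calreticulin), Hsp90b1 and Hspa5 stood above Atf4 in all 8 groups, and Slc7a11 had the lowest level of the 36 genes in all 8. Atf4 had a mean level of 123 CPM per kilobase in H2B/p53dIEC organoids, 161 in H2BdIEC organoids and 184 in control organoids. It had 129 in tumors, 114 in adjacent tissue and 89.7 in floxed tissue, and 48.1 in H2BdIEC crypts against 55.6 in floxed crypts. Calr had 245, 279 and 260 CPM per kilobase in the same 3 organoid groups and 293, 222 and 303 in the same 3 tissue groups. Levels are set side by side across the 3 sets without a test, since each set was normalized on its own.

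The mean level of each arm was taken in each library. On the log2 CPM scale, relative to the mean of the floxed or control libraries of the same set, the ATF4 arm stood at 1.51 to 2.28 in the 4 tumors and at 0.28 to 1.24 in the 4 adjacent tissues. It stood at -0.81 to -0.79 in the 3 H2B/p53dIEC organoids, -0.53 to -0.16 in the 3 H2BdIEC organoids and -0.35 to -0.25 in the 4 H2BdIEC crypts. The ER chaperone arm stood at -0.44 to 0.48 in tumors, -0.65 to 0.02 in adjacent tissue, -0.20 to -0.19 in H2B/p53dIEC organoids and -0.09 to 0.48 in H2BdIEC crypts. The ATF4 arm was above its floxed level in every tumor and below its control level in every H2B/p53dIEC organoid. Among floxed tissues mouse 1320 stood lowest for the ATF4 arm, at -0.79, and the other 3 lay between 0.18 and 0.37. That shallow library lowers the floxed mean used as the reference. Adjacent tissue 1323, at 0.28, lay within the range of the other 3 floxed tissues.

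**Figure D1:**
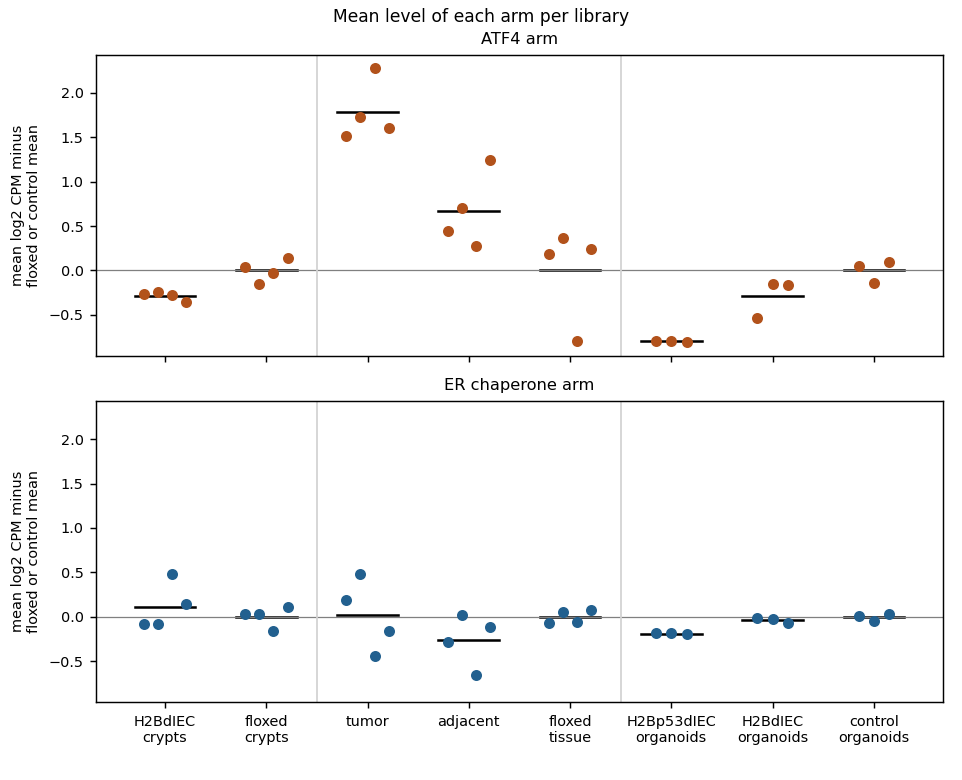
Mean log2 CPM of the 23 ATF4 arm genes (upper panel) and the 13 ER chaperone arm genes (lower panel) in each of 29 libraries, minus the mean of the floxed or control libraries of the same set. For the ATF4 arm the shallow floxed tissue 1320, at -0.79, lowers the mean of the floxed tissues. Points are libraries and lines group means; tumors lie at 1.51 to 2.28 and H2B/p53dIEC organoids at -0.81 to -0.79 for the ATF4 arm, while the chaperone arm stays between -0.65 and 0.48.

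H2B/p53dIEC organoids were set against control organoids. Titles of the controls carry a prefix that those of H2B/p53dIEC organoids lack, so culture or preparation and loss of both genes cannot be told apart. In this comparison 18 of 23 ATF4 arm genes fell while none rose. The median log2 fold change of the arm was -0.58, against -0.00 over all 15701 genes tested. Lower calls made up 16.6% of all genes and all calls 33.3%. In the ER chaperone arm 4 of 13 genes fell, none rose and the median was -0.16, but 7 fell with only these 2 groups fitted or without H2BdIEC organoid A, and 2 without H2B/p53dIEC organoid 3. A call here is an adjusted p under 0.05 from edgeR's quasi-likelihood test with Benjamini-Hochberg adjustment over all genes tested. In 19 of the 23 ATF4 arm genes and 8 of the 13 chaperone arm genes the 3 H2B/p53dIEC values all lay below the 3 control values, which held for 27.3% of all genes. Members named in a comparison follow from a rule on the smallest p, with Atf4, Ddit3, Hspa5 and Xbp1 always among them. Chosen after their values were seen were Atf3, Cebpb, Trib3, Ppp1r15a, Mthfd2, Phgdh and the transporters here, and Psat1, Mthfd2, Slc7a11, Slc3a2, Cth, Asns and Chac1 in tumors.

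Among the transcription factors 5 of 6 fell, against 16.6% of all genes. Atf4 had 289.7, 295 and 284 CPM in H2B/p53dIEC organoids, 346, 409 and 383 CPM in H2BdIEC organoids and 450.3, 398 and 454 CPM in control organoids. The 3 groups did not overlap except between H2BdIEC and control cultures, and the log2 fold change of H2B/p53dIEC over control was -0.58 ± 0.08 (SE; adjusted p = 0.000157). Ddit3, the gene of CHOP, had 17.5, 17.1 and 16.6 CPM in H2B/p53dIEC, 32.0, 41.3 and 33.1 CPM in H2BdIEC and 54.5, 52.8 and 43.4 CPM in control organoids. No group overlapped another, and H2B/p53dIEC stood at -1.56 ± 0.12 (SE; adjusted p = 1.53e-06) over control. Nupr1 followed the same order, with 111, 118 and 119.9 CPM in H2B/p53dIEC, 205, 224 and 211 CPM in H2BdIEC and 299.7, 272 and 249.6 CPM in control organoids. Its log2 fold change over control was -1.23 ± 0.08 (SE; adjusted p = 4.73e-07). Atf3, a stress-induced factor, stood at -1.45 (adjusted p = 6.30e-06). Cebpb, a partner of ATF4, was the factor of the 6 without a call, at -0.72 (adjusted p = 0.227), and H2BdIEC organoid A had 8.52 CPM of it against 38.3 and 55.7 CPM in the other H2BdIEC cultures.

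All 3 feedback and stress effectors fell, against 16.6% of all genes, and Chac1 fell most of the 36 genes. It had 10.1, 9.42 and 10.2 CPM in H2B/p53dIEC organoids, 29.1, 43.4 and 44.8 CPM in H2BdIEC organoids and 49.7, 46.4 and 60.5 CPM in control organoids. The H2B/p53dIEC values lay below all 6 others, and the log2 fold change was -2.40 ± 0.15 (SE; adjusted p = 5.23e-07) over control. Trib3, a pseudokinase that restrains ATF4, and Ppp1r15a (GADD34), which directs a phosphatase to eIF2 alpha, stood at -1.56 (adjusted p = 2.67e-05) and -0.54 (adjusted p = 0.000699).

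Of the metabolic enzymes, all 4 outside the serine pathway fell and 4 of 5 serine and folate enzymes fell. Of all genes 16.6% fell. Asns had 224, 221 and 224 CPM in H2B/p53dIEC, 313, 321 and 319 CPM in H2BdIEC and 415, 404 and 459 CPM in control organoids. The groups formed 3 separate levels, and the log2 fold change over control was -0.93 ± 0.07 (SE; adjusted p = 1.06e-06). Cth, which makes cysteine from cystathionine, had 153, 155 and 157 CPM in H2B/p53dIEC organoids, 259.5, 272 and 254 CPM in H2BdIEC organoids and 289, 263 and 300.01 CPM in control organoids. Its change was -0.87 ± 0.07 (SE; adjusted p = 2.31e-06). Mthfd2, a mitochondrial folate enzyme, stood at -1.15 (adjusted p = 5.66e-06), and Phgdh, the entry enzyme of serine synthesis, was the serine enzyme without a call at -0.17 (adjusted p = 0.326). Of the 4 transporters 1 fell: Slc3a2, the heavy chain shared by several amino acid exchangers, was lower with a log2 fold change of -0.49 (adjusted p = 0.00186). Slc7a5, Slc7a11 and Slc7a1 lay between -0.21 and 0.02. Vldlr, a lipoprotein receptor, stood at -1.0004 ± 0.08 (SE; adjusted p = 2.21e-06).

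Of the 5 chaperones and co-chaperones 1 fell, against 16.6% of all genes. Hspa5, the gene of BiP, had 809.7, 818 and 849 CPM in H2B/p53dIEC, 1043, 897 and 846 CPM in H2BdIEC and 966, 882 and 915 CPM in control organoids, a log2 fold change over control of -0.16 ± 0.08 (SE; adjusted p = 0.151). Xbp1 had 299.7, 308 and 314 CPM in H2B/p53dIEC, 352, 330.0 and 308 CPM in H2BdIEC and 296, 287 and 286 CPM in control organoids, and its change over control was 0.08 ± 0.07 (SE; adjusted p = 0.354). The lowest Xbp1 value in H2B/p53dIEC organoids exceeded the highest control value, without a call. Edem1, which sends misfolded glycoproteins to degradation, had 82.6, 84.5 and 83.6 CPM in H2B/p53dIEC, 135, 101 and 101 CPM in H2BdIEC and 120.0, 132 and 114 CPM in control organoids. It fell in H2B/p53dIEC organoids, by 0.55 on the log2 scale (adjusted p = 0.00148). The other falls were Ern1 at -0.38 (adjusted p = 0.00121), Dnajb9 (the co-chaperone ERdj4) at -0.40 (adjusted p = 0.0131) and the disulfide isomerase Pdia4 at -0.25 (adjusted p = 0.0136). Herpud1, an ER-associated degradation factor, stood at -0.25 (adjusted p = 0.0646).

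**Figure D2:**
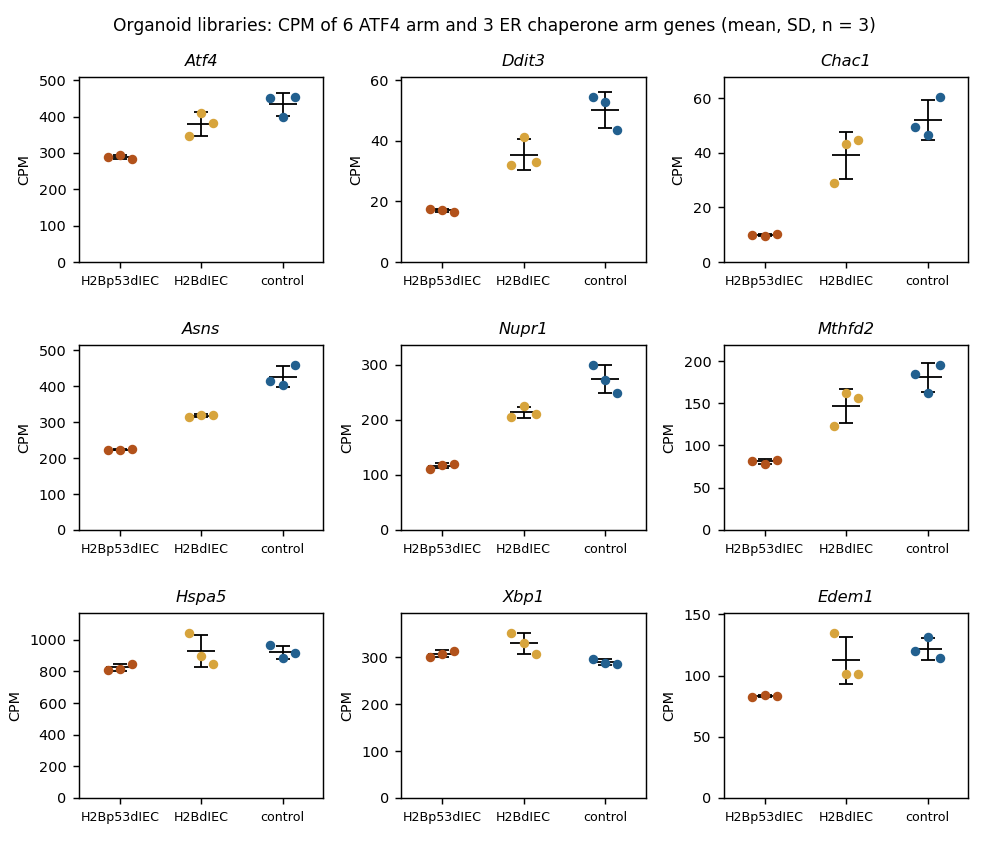
CPM of 6 ATF4 arm genes and 3 ER chaperone arm genes in each organoid library, with the mean and SD of n = 3 per group. Chac1 lies at 9.42 to 10.2 CPM in H2B/p53dIEC, 29.1 to 44.8 CPM in H2BdIEC and 46.4 to 60.5 CPM in control organoids, while Hspa5 groups sit between 809.7 and 1043 CPM.

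H2B/p53dIEC organoids were next set against H2BdIEC organoids, whose label also carries the Rnaseh2b deletion. H2B/p53dIEC organoids had lower levels of 13 of 23 ATF4 arm genes and 4 of 13 chaperone arm genes, with none higher. Rnaseh2b itself lay at 1.08 to 2.15 CPM in H2B/p53dIEC and 4.97 to 7.05 CPM in H2BdIEC organoids. Its level and the loss of Trp53 therefore cannot be told apart here. Lower calls made up 15.4% of all genes tested and all calls 29.3%. The medians were -0.37 for the ATF4 arm and -0.11 for the chaperone arm. Chac1 fell by 2.01 ± 0.16 on the log2 scale (adjusted p = 3.38e-06), Atf3 by 1.31 ± 0.13 (adjusted p = 2.85e-05) and Ddit3 by 1.07 ± 0.12 (adjusted p = 6.03e-05). Nupr1, Vldlr and Cth stood at -0.88 (adjusted p = 9.64e-06), -0.87 (adjusted p = 1.06e-05) and -0.75 (adjusted p = 1.06e-05), and Atf4 at -0.39 (adjusted p = 0.00295). None of the 4 transporters was called. In the chaperone arm Dnajb9, Edem1, Pdia4 and Hsp90b1 fell, from -0.53 for Dnajb9 to -0.27 for Pdia4. Hspa5 stood at -0.17 (adjusted p = 0.135), Xbp1 at -0.10 (adjusted p = 0.280) and Calr at -0.19 (adjusted p = 0.0776). Without H2BdIEC organoid A, 19 ATF4 arm genes and 4 chaperone arm genes were lower. The titles of the H2BdIEC and control organoids share a prefix that those of the H2B/p53dIEC organoids lack, so a difference in culture or preparation and the genotype cannot be told apart.

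H2BdIEC organoids were also set against control organoids. The controls carry an H2B/p53flox/flox label and donors are not named, so culture line and Rnaseh2b deletion cannot be told apart. In this comparison 3 of 23 ATF4 arm genes fell and none rose, while 22 of 23 log2 fold changes were below 0, with a median of -0.27. All calls made up 4.06% of genes, higher calls 2.08% and lower calls 1.97%. The 3 were Asns at -0.42 ± 0.07 (SE; adjusted p = 0.00315), Ddit3 at -0.49 ± 0.11 (SE; adjusted p = 0.0285) and Nupr1 at -0.36 ± 0.08 (SE; adjusted p = 0.0220). Shmt2, the mitochondrial serine hydroxymethyltransferase, stood at -0.39 (adjusted p = 0.0515), Ppp1r15a at -0.33 (adjusted p = 0.0649), Mthfd2 at -0.29 (adjusted p = 0.129) and Atf4 at -0.19 (adjusted p = 0.197). In 9 of 23 ATF4 arm genes all H2BdIEC values lay below all control values, which held for 10.6% of all genes. In the chaperone arm only Ern1 was called, at -0.33 ± 0.07 (SE; adjusted p = 0.0210), and the median was -0.05. Hspa5 stood at 0.01 (adjusted p = 0.950) and Xbp1 at 0.19 (adjusted p = 0.146). Without H2BdIEC organoid A, 4 ATF4 arm genes and 2 chaperone arm genes were called lower and the ATF4 arm median was -0.16. The ATF4 arm count was 12 without the low-count filter, 5 with DESeq2, 1 with only these 2 groups fitted and 0 with the organoid letter as a block. It was also 1 without H2B/p53dIEC organoid 2, control organoid A or control organoid B, and each of the calls of Ddit3, Nupr1 and Ern1 was lost when control organoid A or B was left out.

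Genes of the same pathways outside the 36 were counted from lists. Of 43 other ATF4 pathway genes tested, 24 fell and 6 rose in H2B/p53dIEC over control organoids (69.8% called, against 33.3% of all genes). Those with the smallest p were the cysteinyl-tRNA synthetase Cars at -1.02 ± 0.06 (SE; adjusted p = 3.26e-07), Ndrg1 at -1.25 ± 0.08 (SE; adjusted p = 3.45e-07) and Gdf15, a stress cytokine that is also a p53 target, at -3.23 ± 0.22 (SE; adjusted p = 1.05e-06). Of 51 other unfolded protein response genes 8 fell and 3 rose, a share (21.6%) below that of all genes, led by Ero1l, an ER oxidase that is also induced by hypoxia, at -1.83 ± 0.13 (SE; adjusted p = 1.50e-06). The reductase Dnajc10 stood at 0.61 ± 0.07 (SE; adjusted p = 4.05e-05) and Spcs2, a signal peptidase subunit, at -0.49 ± 0.07 (SE; adjusted p = 0.000147). In H2B/p53dIEC over H2BdIEC organoids the counts were 23 lower and 8 higher of 43, and 5 lower and 5 higher of 51, or 72.1% and 19.6% called against 29.3% of all genes. In H2BdIEC over control organoids they were 6 lower and 1 higher of 43, and 1 lower and 0 higher of 51, or 16.3% and 1.961% called against 4.06% of all genes. The crypt base stem cell list moved as well: 8 of its 10 genes rose in H2B/p53dIEC over control organoids, with summed levels of 3934 to 4049 CPM against 2728 to 3076 CPM. The Paneth list rose in 2 and fell in 5 of 12 and the goblet list rose in 5 and fell in 2 of 13. Their part in the ATF4 arm result was not tested.

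In tumors against floxed tissue, 17 of 23 ATF4 arm genes rose and 1 fell, with a median log2 fold change of 1.91 against 0.07 over all 17666 genes tested. Higher calls made up 28.6% of all genes, and all calls 54.6%. In the ER chaperone arm 2 of 13 genes rose and 3 fell, with a median of 0.16. In 16 ATF4 arm genes and 1 chaperone arm gene all 4 tumors lay above all 4 floxed tissues, which held for 27.5% of all genes, and in 2 genes of each arm they all lay below, which held for 21.7%. The floxed library 1320 had a count of 0 for Phgdh, Slc7a11, Cebpb and Vldlr, so its levels of them are known only to lie below 8.03 CPM, and it had 3 counts of Slc7a5. Without it 16 ATF4 arm genes rose and 1 fell, and the chaperone arm counts were again 2 and 3.

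Serine and folate enzymes rose in tumors, 5 of 5 over floxed tissue and 5 of 5 over adjacent tissue. Of all genes 28.6% and 23.0% rose in these comparisons. With mouse as a replicate block 4 of 5 rose over adjacent tissue, and Mthfd2 stood at 1.61 (adjusted p = 0.0532). Phgdh had 93.5, 119.8, 97.2 and 96.6 CPM in the tumors of mice 1319, 1322, 1323 and 1349, 8.55, 11.2, 3.62 and 15.8 CPM in adjacent tissue of the same mice, and 4.60, 7.13, 0 and 3.94 CPM in floxed tissue of mice 1315, 1316, 1320 and 1321. Every tumor lay far above every other tissue. Its log2 fold changes were 4.36 ± 0.45 (SE; adjusted p = 1.51e-05) over floxed and 3.37 ± 0.40 (SE; adjusted p = 6.66e-05) over adjacent tissue, and 4.28 over floxed tissue without mouse 1320. By sequence, 47.8% of the 50-base stretches of Phgdh are shared with other annotated genes, pseudogene copies among them, so its counts are uncertain to that extent. Shmt2 had 79.9, 105, 108 and 118 CPM in tumors, 26.1, 37.6, 25.2 and 41.8 CPM in adjacent tissue and 20.03, 21.9, 26.8 and 21.7 CPM in floxed tissue, in the same order of mice. It stood at 2.23 ± 0.20 (SE; adjusted p = 7.46e-06) over floxed and 1.65 ± 0.19 (SE; adjusted p = 4.89e-05) over adjacent tissue. Psph, the phosphatase that completes serine synthesis, stood at 1.91 (adjusted p = 4.08e-05) and 1.32 (adjusted p = 0.000425). Psat1 and Mthfd2 stood at 2.54 (adjusted p = 0.000516) and 1.83 (adjusted p = 0.00390) over floxed tissue.

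Transporters and the other enzymes were split. Slc7a5, the light chain of the leucine transporter LAT1, had 110.5, 122, 128 and 113 CPM in tumors, 12.7, 14.05, 13.7 and 33.8 CPM in adjacent tissue and 5.96, 8.67, 8.03 and 8.16 CPM in floxed tissue. The tumors did not overlap either group, with 3.96 ± 0.33 (SE; adjusted p = 4.94e-06) over floxed and 2.67 ± 0.29 (SE; adjusted p = 3.64e-05) over adjacent tissue. Its partner Slc3a2 had no call, at -0.32 (adjusted p = 0.319) over floxed tissue. Slc7a11 had 13.7, 11.9, 115 and 16.6 CPM in tumors, 11.9, 2.06, 1.84 and 3.96 CPM in adjacent tissue and 1.89, 1.67, 0 and 1.44 CPM in floxed tissue. Tumor 1323 stood far above the other 3, and adjacent tissue 1319 came close to the lowest tumor. Cth fell against the run of the arm: 20.7, 7.42, 13.2 and 21.5 CPM in tumors, 50.2, 113, 37.6 and 169 CPM in adjacent tissue and 115, 69.4, 112 and 80.5 CPM in floxed tissue. All tumors lay below all other tissues, and its log2 fold change was -2.57 ± 0.48 (SE; adjusted p = 0.000796) over floxed tissue. Asns stood at 2.26 (adjusted p = 0.000106).

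The transcription factors rose unevenly, 4 of 6 over floxed tissue, against 28.6% of all genes. Atf5, a close relative of ATF4, had 63.0, 117, 77.5 and 45.9 CPM in tumors, 23.2, 26.3, 20.6 and 30.2 CPM in adjacent tissue and 18.2, 20.6, 21.4 and 16.4 CPM in floxed tissue. It stood at 2.02 ± 0.26 (SE; adjusted p = 6.20e-05) over floxed and 1.59 ± 0.25 (SE; adjusted p = 0.000305) over adjacent tissue. Atf4 itself had 269, 318, 289 and 338 CPM in tumors, 222, 205, 340.4 and 304 CPM in adjacent tissue and 176, 260.3, 177 and 234 CPM in floxed tissue. It was called over floxed tissue at 0.51 ± 0.20 (SE; adjusted p = 0.0447) and not over adjacent tissue, at 0.18 (adjusted p = 0.481). Every tumor lay above every floxed tissue, while tumors and adjacent tissue overlapped, and the call was lost without any of 7 libraries, namely floxed tissue 1315 (0.42, adjusted p = 0.135), 1320 (0.43, adjusted p = 0.116) and 1321, tumors 1322, 1323 and 1349 and adjacent tissue 1349. Ddit3 had 13.2, 21.4, 37.3 and 12.1 CPM in tumors, 17.1, 17.8, 10.9 and 11.3 CPM in adjacent tissue and 17.6, 19.2, 16.1 and 15.2 CPM in floxed tissue, with no call. Tumor 1323 was again the highest, and without it the value was -0.14. Chac1 was called over adjacent tissue at 1.77 (adjusted p = 0.0325), though not with mouse as a replicate block (adjusted p = 0.128), and not over floxed tissue at 0.90 (adjusted p = 0.245).

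In the chaperone arm 2 of 4 isomerases and secreted factors rose over floxed tissue, and 1 of 5 chaperones fell. Of all genes 28.6% rose and 26.1% fell in this comparison. Hspa5 had 878, 1016, 620.3 and 641 CPM in tumors, 533, 664, 383 and 664 CPM in adjacent tissue and 607, 656, 629 and 681 CPM in floxed tissue. The groups overlapped, with 0.29 ± 0.22 (SE; adjusted p = 0.278) over floxed and 0.49 (adjusted p = 0.0852) over adjacent tissue. Xbp1 stood at 0.03 (adjusted p = 0.892) and -0.14 (adjusted p = 0.526). Of the isomerases and secreted factors, Pdia6 stood at 1.10 ± 0.35 (SE; adjusted p = 0.0165) over floxed and 1.36 ± 0.35 (SE; adjusted p = 0.00672) over adjacent tissue, with 348, 614, 231 and 290.1 CPM in tumors, 127, 204, 67.0 and 181 CPM in adjacent tissue and 173, 190.3, 149.9 and 175 CPM in floxed tissue. Manf, a secreted ER stress factor, stood at 0.72 (adjusted p = 0.0230) and 0.79 (adjusted p = 0.0161), and Pdia4 at 0.93 (adjusted p = 0.0210) over adjacent tissue. Without tumor 1322, which had the highest Pdia6 level, neither Pdia6 (0.75, adjusted p = 0.0572) nor Manf (0.51, adjusted p = 0.0718) was called over floxed tissue.

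The degradation factor Edem1 fell, with 110.1, 100.02, 87.6 and 105 CPM in tumors, 228, 244, 216 and 201 CPM in adjacent tissue and 243, 277, 235 and 302 CPM in floxed tissue. All 4 tumors lay below all 8 other tissues, and the log2 fold changes were -1.396 ± 0.14 (SE; adjusted p = 1.23e-05) over floxed and -1.14 ± 0.14 (SE; adjusted p = 7.01e-05) over adjacent tissue. Herpud1 had 147, 158, 145 and 209 CPM in tumors, 248.9, 219.9, 517 and 341 CPM in adjacent tissue and 174, 127, 99.0 and 113 CPM in floxed tissue. Tumors lay below all adjacent tissues, at -1.01 (adjusted p = 0.00854), and overlapped floxed tissue. Dnajb9 and Ern1 stood at -0.88 (adjusted p = 0.00644) and -0.62 (adjusted p = 0.0475) over floxed tissue, and the call of Ern1 was lost in 13 alternatives, DESeq2 among them (-0.53, adjusted p = 0.109).

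**Figure D3:**
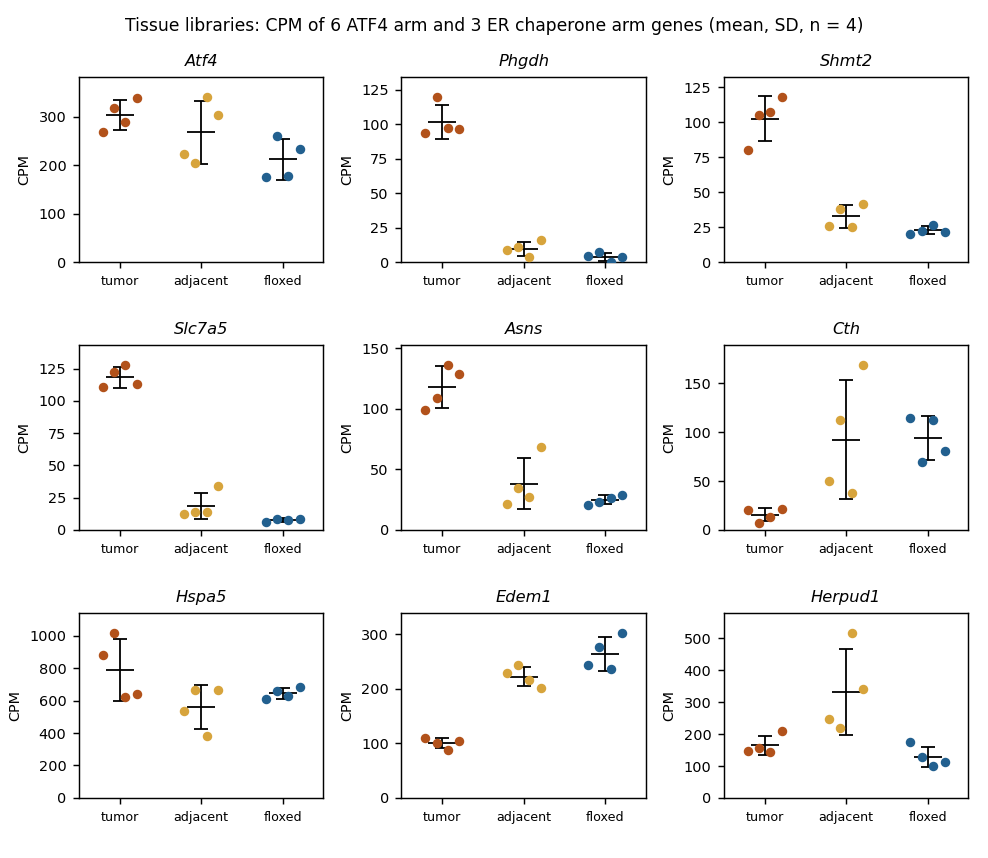
CPM of 6 ATF4 arm genes and 3 ER chaperone arm genes in each tissue library, with the mean and SD of n = 4 per group. Phgdh lies at 93.5 to 119.8 CPM in tumors and at most 15.8 CPM in the other tissues, and Edem1 at 87.6 to 110.1 CPM in tumors and 201 to 302 CPM in the others.

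Against adjacent tissue of the same 4 mice, 14 of 23 ATF4 arm genes rose and 1 fell, with a median of 1.36, and 3 of 13 chaperone arm genes rose and 2 fell, with a median of 0.40. Higher calls made up 23.0% of all genes, and all calls 46.9%. Tumors and adjacent tissue did not overlap in 13 ATF4 arm genes on the higher side and 1 on the lower, where 19.6% and 20.6% of all genes stood. With mouse as a replicate block, 11 ATF4 arm genes rose and 1 fell, and 5 chaperone arm genes rose and 2 fell, with medians of 1.37 and 0.45. The block ended the calls of Chac1 (1.72, adjusted p = 0.128), Slc7a11 (2.502, adjusted p = 0.0952) and Mthfd2 and added Sdf2l1 (0.79, adjusted p = 0.0218) and Creld2 (0.64, adjusted p = 0.0286). Adjacent over floxed tissue gave 1 higher gene in each arm, against 1.07% of all genes called: Vldlr at 1.83 (adjusted p = 0.0471) and Herpud1 at 1.35 (adjusted p = 0.0368). Slc7a5 stood at 1.29 (adjusted p = 0.0602), Cebpb at 1.36 (adjusted p = 0.106) and Ern1 at -0.96 (adjusted p = 0.0742). The medians were 0.57 for the ATF4 arm and -0.25 for the chaperone arm. Adjacent tissues all lay above floxed tissues in 5 ATF4 arm genes and 1 chaperone arm gene, and all below in 1 chaperone arm gene, where 8.22% and 5.88% of all genes stood. Atf4, Ddit3, Hspa5 and Xbp1 had no call, at 0.33, -0.26, -0.20 and 0.17. Neither call held without adjacent tissue 1349 or 1323, tumor 1319 or a floxed library, whichever it was (Vldlr 1.74 and Herpud1 1.26 without 1320, with adjusted p = 0.0716 and 0.0933), and that of Vldlr was also lost without tumor 1349 or adjacent tissue 1319.

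Of 44 other ATF4 pathway genes, 27 rose and 6 fell over floxed tissue (75.0% called, against 54.6% of all genes), and 23 rose and 7 fell over adjacent tissue (68.2%, against 46.9%). Over floxed tissue the smallest p-values were those of Ddit4, an mTOR inhibitor, at 2.49 ± 0.30 (SE; adjusted p = 3.48e-05), the secreted factor Stc2 at 4.13 ± 0.51 (SE; adjusted p = 4.45e-05) and the neutral amino acid transporter Slc1a4 at 2.84 ± 0.37 (SE; adjusted p = 6.02e-05). Over adjacent tissue Pycr1, a proline synthesis enzyme, stood at 4.27 ± 0.56 (SE; adjusted p = 0.000127), Slc1a4 at 1.97 ± 0.33 (SE; adjusted p = 0.000530) and the transaminase Gpt2 at 1.80 ± 0.32 (SE; adjusted p = 0.000710). Of 51 other unfolded protein response genes, 15 rose and 7 fell over floxed tissue, led by the co-chaperone Sil1 at 1.56 ± 0.19 (SE; adjusted p = 3.89e-05), Ero1l at 1.71 ± 0.23 (SE; adjusted p = 6.85e-05) and Crebrf at -1.43 ± 0.22 (SE; adjusted p = 0.000176). Over adjacent tissue 14 rose and 5 fell. The shares called of this list, 43.1% and 37.3%, lay below those of all genes in both comparisons. Ddit4 was the single call of both lists in adjacent over floxed tissue, at 2.06 ± 0.29 (SE; adjusted p = 0.0146).

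Many cell type markers were called in tumors, as were 54.6% of all genes over floxed tissue and 46.9% over adjacent tissue. The crypt base stem cell list rose in 8 of 10 genes over floxed tissue, with summed levels of 1380 to 2042 CPM against 343 to 500.2 CPM. The enterocyte list fell in 6 and rose in 2 of 12, at 1060 to 19863 CPM against 33766 to 43864 CPM, and the epithelium list fell in 6 and rose in 1 of 7, at 5409 to 8897 CPM against 15109 to 17130 CPM. The goblet list, from a cell type rich in ER, fell in 6 and rose in 4 of 14, at 1300 to 6276 CPM against 19365 to 22614 CPM. The leukocyte list rose in 4 and fell in 2 of 10, at 736 to 2343 CPM against 158 to 346 CPM. The stroma and muscle list rose in 4 and fell in 4 of 9, at 1301 to 8374 CPM against 3843 to 5946 CPM. All 3 acinar pancreas markers tested rose, with the list at 58.5 to 298 CPM against 12.8 to 24.3 CPM, with Amy2a5 at 0 in both groups and Pnlip and Try4 at 0 in floxed tissue. The plasma and B cell list fell in 1 of 12, at 292 to 6701 CPM against 3103 to 8584 CPM. No marker of the other lists named was at 0 throughout the tumors or the floxed tissues. The Paneth list rose in 3 and fell in 7 of 13, and the proximal list rose in 5 and fell in 3 of 10. Over adjacent tissue the stem cell list rose in 9 of 10, the enterocyte list fell in 8 of 12 and the Paneth list rose in 2 and fell in 9 of 13. The part of these cell types in either arm was not tested.

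In H2BdIEC crypts against floxed crypts of the same age, 4 of 23 ATF4 arm genes fell and 1 rose, and no chaperone arm gene was called. Of 14596 genes tested 10.0% were called, 4.87% lower and 5.16% higher. The medians were -0.21 for the ATF4 arm and 0.14 for the chaperone arm, with 10 and 1 members at an unadjusted p under 0.05. In 1 ATF4 arm gene the H2BdIEC crypts all lay above the floxed crypts and in 3 all below, where 8.54% and 10.3% of all genes stood. DESeq2 called 6 ATF4 arm genes lower and 1 higher, and 0 chaperone arm genes. Ddit3 had 14.2, 19.995, 14.6 and 13.0 CPM in H2BdIEC crypts and 9.26, 11.8, 10.8 and 11.01 CPM in floxed crypts. All H2BdIEC values lay above all floxed values, at 0.52 ± 0.15 (SE; adjusted p = 0.0492). Pck2, the mitochondrial form of the gluconeogenic enzyme, had 21.8, 16.6, 13.7 and 14.5 CPM in H2BdIEC crypts and 34.3, 25.4, 33.3 and 30.5 CPM in floxed crypts, at -0.88 ± 0.16 (SE; adjusted p = 0.00862). Slc7a11 was low in both, with 0.596, 0.449, 0.838 and 0.710 CPM against 1.964, 1.04, 2.09 and 4.44 CPM, at -1.85 ± 0.44 (SE; adjusted p = 0.0265). Mthfd2 and Nupr1 stood at -0.42 (adjusted p = 0.0297) and -1.33 (adjusted p = 0.0444), and Atf4 at -0.21 (adjusted p = 0.277).

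None of these 5 calls held under every alternative: that of Ddit3 was lost in 11 of them, among them the leaving out of each H2BdIEC library and of floxed crypts 1, 3 and 4 (adjusted p = 0.0590 to 0.126). Slc7a11, Mthfd2 and Nupr1 lost their calls with 4, 6 and 6 of the 8 libraries left out, and Pck2 only with the marker covariates. In the chaperone arm Hspa5 had 531, 520.3, 996 and 678 CPM in H2BdIEC crypts and 559.8, 549, 418 and 596 CPM in floxed crypts, at 0.36 ± 0.21 (SE; adjusted p = 0.286). H2BdIEC crypt 3 was the highest there, as it was for the arm mean. Sdf2l1 stood at 0.48 (adjusted p = 0.163), Creld2 at 0.46 (adjusted p = 0.290), Dnajb9 at 0.37 (adjusted p = 0.220) and Xbp1 at -0.04 (adjusted p = 0.884). Of 42 other ATF4 pathway genes 2 rose and 3 fell (11.9% called, against 10.0% of all genes). Gdf15 stood at 1.81 ± 0.22 (SE; adjusted p = 0.00167), Sesn2, a regulator of mTOR and another p53 target, at 0.89 ± 0.12 (SE; adjusted p = 0.00291), and the glycine transporter Slc6a9 at -0.90 ± 0.20 (SE; adjusted p = 0.0208). Of 50 other unfolded protein response genes 2 rose and 2 fell (8.0% called), with Wfs1 at 0.83 ± 0.14 (SE; adjusted p = 0.00689), the transcription factor Creb3l1 at -0.90 ± 0.17 (SE; adjusted p = 0.0124) and the isomerase Txndc5 at -0.55 ± 0.12 (SE; adjusted p = 0.0212).

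Secretory and regional markers moved with the crypt groups, where 4.87% of all genes were called lower and 5.16% higher. The Paneth list fell in 8 of 13 genes, at summed levels of 2824 to 4030 CPM in H2BdIEC crypts against 5233 to 14150 CPM in floxed crypts. The goblet list fell in 5 of 13, at 7841 to 12038 CPM against 12032 to 20423 CPM, and the stem cell list in 5 of 10, at 568 to 902 CPM against 1250 to 1424 CPM. The proximal small intestine list rose in 4 of 10, at 3528 to 4760 CPM against 1532 to 2754 CPM. None of these markers was at 0 in either group. With the Paneth and goblet lists as a covariate, or with the proximal list as one, no member of either arm was called, and the first turned Slc7a11 to 0.045 and Nupr1 to 0.013. Summed Paneth and proximal levels did not overlap between the groups, so marker level and genotype cannot be told apart in these fits. The lost calls therefore do not show what the markers contribute. Acinar pancreas markers summed to 28.98 to 515.8 CPM in H2BdIEC crypts and 16.7 to 97.5 CPM in floxed crypts, with none of 8 called and Amy2a5, Prss2 and Try4 at 0 in floxed crypts.

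The effect of H2BdIEC in crypts minus that in organoids was tested over 17163 genes, of which 4.02% were called, 2.3% higher and 1.72% lower. Of the 36 members 1 was called higher and 1 lower, or 5.56%. Crypts and organoids were separate sets with differently labelled controls, so set and setting cannot be told apart. Ddit3 differed by 1.03 ± 0.21 (SE; adjusted p = 0.0138), being higher than floxed in H2BdIEC crypts and lower than control in H2BdIEC organoids. Slc7a11 differed by -2.09 ± 0.50 (SE; adjusted p = 0.0338). The call of Ddit3 was lost without control organoid B (adjusted p = 0.0507) and that of Slc7a11 without any of 10 libraries (adjusted p = 0.0501 to 0.0911). No chaperone arm gene was called, 0 had an unadjusted p under 0.05, and DESeq2 called 0 as well. Atf4 differed by 0.00 ± 0.17 (SE; adjusted p = 1.0).

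Tumors over floxed tissue and H2B/p53dIEC over control organoids share no library and can be set side by side. Of 23 ATF4 arm genes, 18 had a log2 fold change above 0 in tumors and below 0 in organoids, 12 of them called in both, patterns that held for 21.7% and 3.34% of the 13121 genes tested in both: Atf4, Trib3, Asns, Psat1, Psph, Shmt2, Mthfd2, Atf5, Ppp1r15a, Vldlr, Pck2 and Nupr1. The tumor call of Atf4 was lost without floxed tissue 1320 (0.43, adjusted p = 0.116) and without several other libraries. Cth was lower in both and called in both. Of 13 chaperone arm genes, 7 were above 0 in tumors and below 0 in organoids, with 0 called in both. Another 5 were below 0 in both, and Dnajb9, Edem1 and Ern1 of these were called in both, against 27.9% and 7.07% of all genes. Slc7a11 and Phgdh, with 4.59 and 4.36 in tumors, stood at 0.02 and -0.17 in organoids. The tumor value of Slc7a11 was 3.12 without tumor 1323 and 4.55 without floxed library 1320, where its count was 0. Whole tissue and epithelial cultures differ in cell types, so tissue makeup and genotype cannot be told apart here.

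**Figure D4:**
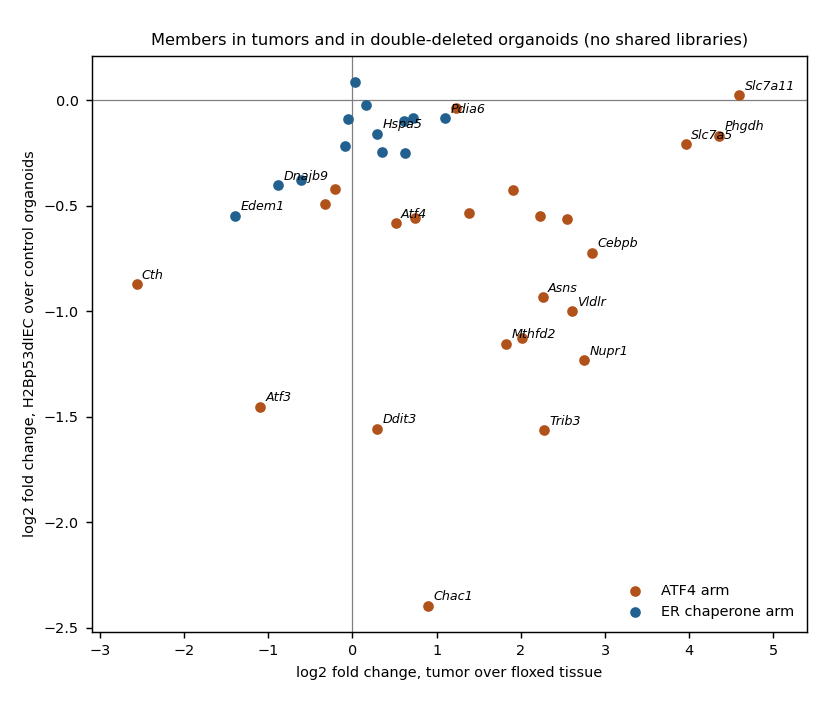
Log2 fold change of tumors over floxed tissue (horizontal) and of H2B/p53dIEC over control organoids (vertical) for 23 ATF4 arm and 13 ER chaperone arm genes. Of the ATF4 arm, 18 genes lie in the lower right quadrant, and chaperone arm genes lie between -0.55 and 0.08 on the vertical axis.

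Members with the response element of their arm were set beside members without it. In H2B/p53dIEC over control organoids, 7 of 8 ATF4 arm genes with the CEBP-ATF core fell, with a median of -1.12, and 10 of 13 without it fell, with a median of -0.55. In tumors over floxed tissue 6 of 8 with the core rose, with a median of 2.27, and 10 of 13 without it, with a median of 1.83. Of all genes 16.6% fell in this organoid comparison, and 28.6% rose and 26.1% fell in this tumor comparison. Of the 5 chaperone arm genes with the ER stress element, 1 rose in tumors over floxed tissue and 0 fell in H2B/p53dIEC over control organoids. Of the 7 without it, 3 fell in tumors and 4 in organoids. Over H2BdIEC organoids 6 of 8 ATF4 arm genes with the core fell and 6 of 13 without it, against 15.4% of all genes. In the chaperone arm 1 of 5 with the element fell and 3 of 7 without it. Over adjacent tissue 6 of 8 and 7 of 13 ATF4 arm genes rose in tumors, against 23.0% of all genes. In the chaperone arm 1 of 5 rose with the element, and 1 rose and 2 fell of 7 without it. The counts by element cover few genes and were not tested.

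**Figure D5:**
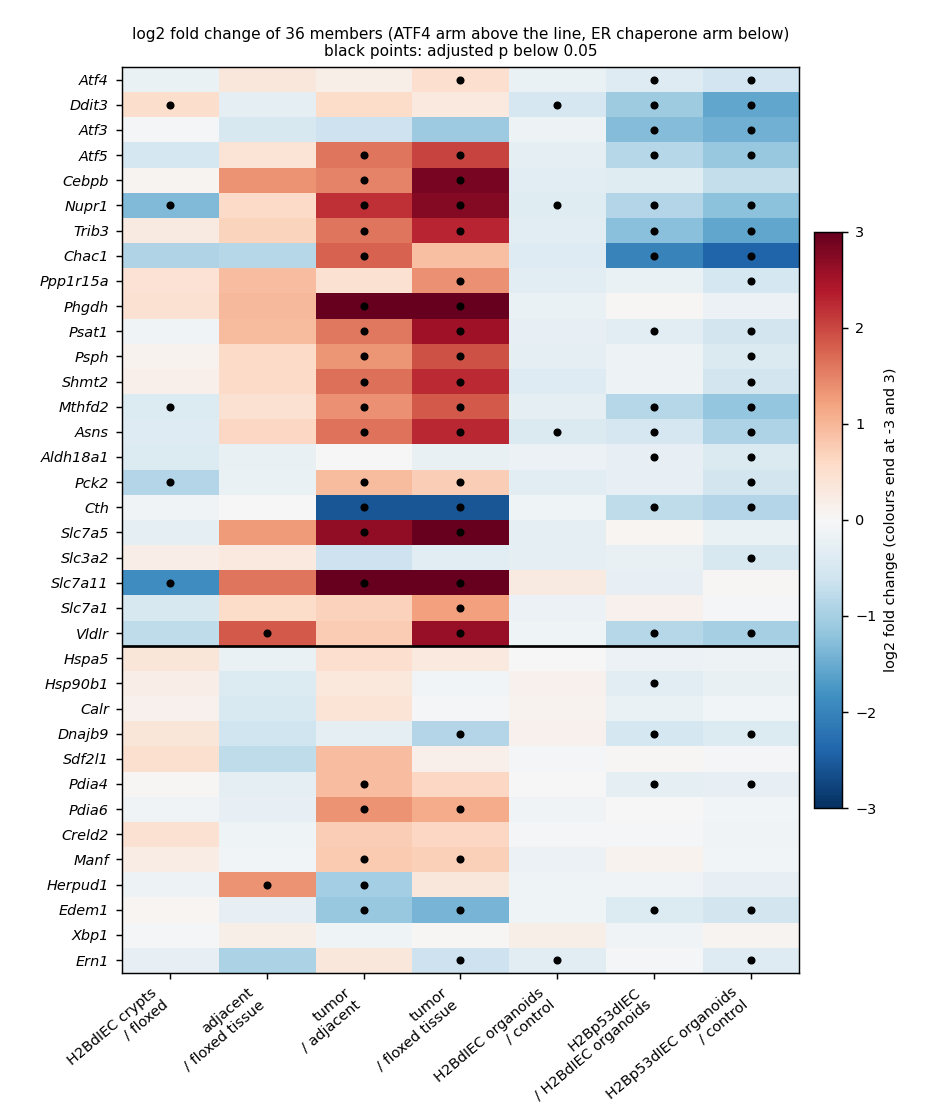
Log2 fold change of the 36 genes (rows, 23 ATF4 arm above the line and 13 ER chaperone arm below) in 7 comparisons (columns), red for higher and blue for lower, with colours ending at -3 and 3. Black points mark an adjusted p under 0.05; red fills most of the ATF4 arm in both tumor columns and blue in the H2Bp53dIEC organoid columns.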

How the data were processed

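RNA-seq libraries were made with a stranded mRNA kit, per the labels' protocols, and the 29 gene count files were deposited by the authors as raw counts per Ensembl gene. Per the submitters' processing notes, reads were trimmed with cutadapt 1.5 and 1.9 or Trimmomatic 0.36, aligned with TopHat2 2.0.14 and counted with HTSeq, with GRCm38 named as the build. The strand setting of the counting is not given in the sources used here, and 16 members have an annotated gene on the opposite strand. Symbols came from GENCODE M21 for 47310 of 47729 crypt, 49326 of 49585 tissue and 52403 of 52550 organoid identifiers.

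Each set was fitted on its own with edgeR 4.0.16 (R 4.3.3): TMM factors, edgeR's low-count filter, the quasi-likelihood test and Benjamini-Hochberg adjustment over all genes tested, with a threshold of 0.05. All groups of a set entered its fit. The exception was the crypt minus organoid effect, from a joint fit with its own factors, filter and spread. That fit held the crypt libraries and the H2BdIEC and control organoids, over the gene identifiers found in both sets. CPM are counts scaled to the library's total gene counts and its TMM factor, and arm means used log2 CPM with a prior count of 2. A limit for a count of 0 is 3 counts and covers counting error only. The members and lists were chosen with earlier results of these data known. Named members were Atf4, Ddit3, Hspa5 and Xbp1 and, in each arm and comparison, the 5 others with the smallest p. For the other pathway lists they were the 3 with the smallest p. Tumor and adjacent libraries pair by mouse, as the labels give the same 4 mice. Their deviations from the group means correlated at 0.156, -0.164, 0.120 and 0.0641 for mice 1349, 1323, 1322 and 1319. The script was tested on simulated counts. Alternatives were DESeq2 1.42.0, other size factors, no filter, single comparisons, replicate blocks, marker lists as covariates and each library left out. No pair among the 29 libraries, within or across groups, held identical counts.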

Additional observations from a re-analysis of the deposited data

Results flagged for a closer look

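Of 180 pairs of member and group with 4 libraries, 12 had a library far from the other 3, where chance alone gives about 1 in 20. Tumor 1323 had 115 CPM of Slc7a11 against 11.9 to 16.6 CPM in the other tumors, and 76.9 CPM of Trib3 against 19.2 to 26.9 CPM. Tumor 1322 had 119.8 CPM of Phgdh against 93.5 to 97.2 CPM. Adjacent tissue 1349 stood above the other adjacent tissues with 33.8 CPM of Slc7a5 against 12.7 to 14.05 CPM, 14.4 CPM of Psph against 9.16 to 9.97 CPM and 32.4 CPM of Vldlr against 12.3 to 13.6 CPM. Floxed tissue 1320 had 0 CPM of Vldlr against 5.16 to 5.50 CPM, which its depth allows.

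In crypts, H2BdIEC crypt 2 had 11.98 CPM of Nupr1 against 5.56 to 6.34 CPM, 10.03 CPM of Vldlr against 3.10 to 4.23 CPM and 10.2 CPM of Cebpb against 14.5 to 14.8 CPM. This library also had 515.8 CPM of acinar pancreas markers; the part of these in its values was not tested. Floxed crypt 4 had 157 CPM of Atf4 against 120.4 to 125.9 CPM, and floxed crypt 2 had 6.41 CPM of Vldlr against 9.34 to 9.59 CPM. Ambiguous counts made up 2.19% in floxed crypt 4 and 0.377% to 0.742% in the other crypt libraries. Their part in its values was not tested. By the interaction test, the H2BdIEC effect in crypts minus that in organoids was 1.03 on the log2 scale for Ddit3 and -2.09 for Slc7a11. Library set and setting cannot be told apart in this test.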

How the results depend on the processing

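Of the named members called, all alternatives kept the call of 8 of 10 in tumors over adjacent tissue, 7 of 11 in tumors over floxed tissue, and 9 of 11 in H2B/p53dIEC organoids over H2BdIEC and over control organoids. They kept 0 of 5 in crypts, 0 of 4 in H2BdIEC organoids, 0 of 2 in adjacent over floxed tissue and 0 of 2 in the crypt minus organoid effect. Named members were mostly those with the smallest p in the main fits, which favours calls that hold. Other members called in tumors and in H2B/p53dIEC organoids were left out of these counts. The causes of lost calls were not tested.

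In crypts the ATF4 arm count of 1 higher was 0 with upper-quartile factors, without the filter and with either marker covariate, and the 4 lower were 0 with either covariate; leaving out 1 library gave 0 to 1 higher and 1 to 4 lower. The Paneth and goblet covariate turned Atf4 to 0.14, Xbp1 to 0.10, Slc7a11 to 0.045 and Nupr1 to 0.013, and the proximal covariate turned Hspa5 to -0.024 and Ern1 to 0.59. Both covariates largely follow the crypt groups, so these shifts cannot be split between marker level and genotype. Xbp1 ranged from -0.18 to 0.033 with 1 library left out.

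In tumors over adjacent tissue the 3 higher chaperone arm genes were 5 with DESeq2, 5 with mouse as replicate block and 1 without floxed tissue 1320 and adjacent tissue 1323, a choice made after seeing the data. Leaving out 1 library gave 2 to 5, with 1 to 2 lower ATF4 arm genes. In adjacent over floxed tissue DESeq2 gave 3 higher ATF4 arm genes and 1 lower chaperone arm gene, the fit of the 2 groups alone also 1 lower, and leaving out 1 library 0 to 1 higher in each arm. Without both libraries named above, 0 were higher in either arm. In tumors over floxed tissue the fit of 2 groups gave 2 lower ATF4 arm genes; leaving out 1 library gave 0 to 4 higher chaperone arm genes, Ddit3 at -0.14 to 0.48 and Xbp1 at -0.056 to 0.12.

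In H2BdIEC over control organoids the 3 lower ATF4 arm genes were 12 without the filter, 5 with DESeq2, 1 with only 2 groups and 0 with the letter as replicate block, and 1 to 4 with 1 library left out. The 1 lower chaperone arm gene was 0 with 2 groups and with the block, and 0 to 2 with 1 library left out. Deviations of cultures with the same letter correlated at 0.0009, -0.178 and 0.102. Tissues paired by mouse on their labels gave values from -0.164 to 0.156, so this check cannot tell whether the letters pair the cultures. Hspa5 was -0.0033 without the filter and -0.080 to 0.073 with 1 library left out. In H2B/p53dIEC organoids the 4 lower chaperone arm genes were 2 to 6 over H2BdIEC organoids with 1 library left out. Over control organoids they were 2 to 7, and 7 with only 2 groups. For the crypt minus organoid effect, DESeq2 gave 2 higher ATF4 arm genes and no filter gave 0 lower; leaving out 1 library gave 0 to 2 of each. Atf4 was -0.014 with DESeq2 size factors, -0.034 with upper-quartile factors, -0.016 with DESeq2 and -0.078 to 0.095 with 1 library left out.

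Depth limits floxed tissue 1320 most, where 3 counts are 8.03 CPM. Of the 50-base stretches of Phgdh 47.8% and of Cebpb 18.1% occur in other genes. Ages of tissue donors are not given, and the labels do not name the donors of the organoid cultures.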
